A study of Mus musculus with 4 samples.

Results

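The stefins and cystatins are inhibitors of cysteine proteases, and they were followed here across 4 arrays of mouse granulocytes with and without miR-223. The members were a list of gene names drawn up with the knockout minus wild-type differences of these same arrays in view, and every probe whose array annotation carries a listed name was taken. This gave 9 genes on 10 probes, of 28500 genes on 41150 probes: the stefin A genes Stfa1, Stfa2, Stfa2l1, Stfa3 and BC100530, the stefin B gene Cstb, and the secreted cystatin genes Cst3, Cst7 and Cst10. The listed name BC117090, given as another name of Stfa2l1, was carried by 0 rows. RefSeq places BC100530 under the symbol Cstdc5, which is used below, and not under Cstdc4, the alias given with the list, which RefSeq keeps for the array's Gm5483. Because the list was chosen from this contrast, the values of its genes are given as a description, with no test.

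The cells came from bone marrow of male C57BL/6 mice, either miR-223 KO or wild type, kept in culture with GM-CSF, a growth factor of granulocytes and macrophages, at 40 ng/ml over 4 days, and sorted as expanding immature granulocytes. The labels give neither the age of the mice nor how the deletion was made. Each genotype had 2 arrays, and since nothing in the labels says that these were separate animals, p-values measure only the spread between the samples, which may be technical. The number of arrays limits the precision of every value. In a sorted population, fewer cells of a type and less RNA per cell cannot be told apart.

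Cystatins are small proteins that block papain-like cysteine proteases, mostly lysosomal cathepsins, by wedging tightly and reversibly into the active site. Stefins, the type 1 cystatins, have no signal peptide and stay inside the cell, whereas type 2 cystatins such as cystatin C are made for secretion. Humans have a single stefin A gene, while mice carry a cluster of close copies that is active in bone marrow and neutrophils. MicroRNAs pair through their seed with sites mostly in 3' untranslated regions and lower the level of the matching transcripts.

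The deleted microRNA is shown for its seed, bases 2 to 8, in capitals, with the RefSeq sequence of mmu-miR-223-3p at chrX:96242884-96242905 on the plus strand of GRCm38.p6.
mmu-miR-223-3p: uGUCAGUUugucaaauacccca
The DNA letters that pair with this seed, AACTGAC, occurred in 0 of the 10 member probes and in 153 of 41174 array probes (0.372%). The probes are 60 bases each and cover only a stretch of each transcript, so this is a statement on the probes alone. No probe was named for Mir223, and its level could not be checked on these arrays.

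The 5 stefin A members lie close together on chromosome 16 and belong to a family of related copies, so the letters of their probes bear on what each value can mean. How alike the whole genes are was not computed. The probes are given from 5' to 3', with positions of build mm9 from the array files, and the longest run shared with the probe of another named gene of the cluster is in capitals.
Stfa1, chr16:36285323-36285382, plus strand: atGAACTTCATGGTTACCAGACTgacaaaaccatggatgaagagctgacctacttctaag
Stfa2, chr16:36405290-36408367, minus strand: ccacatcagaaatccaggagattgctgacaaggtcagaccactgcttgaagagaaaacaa
Stfa2l1, chr16:36160118-36161876, plus strand: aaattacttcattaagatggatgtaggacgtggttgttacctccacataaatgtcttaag
Cstdc5 (BC100530), chr16:36359525-36359584, minus strand: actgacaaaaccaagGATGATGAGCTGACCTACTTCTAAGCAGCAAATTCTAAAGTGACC
Stfa3, chr16:36450693-36450752, minus strand: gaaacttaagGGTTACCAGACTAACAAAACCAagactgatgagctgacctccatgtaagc
The Stfa2 and Stfa2l1 probes lie over 3078 and 1759 bases of the genome, so that they cross a junction between exons. They shared at most 7 bases in a row with the other probes of the cluster's named genes and have no capitals. The Stfa3 and Stfa1 probes shared 22 and 21 bases with the probe of Cstdc4, and the Cstdc5 probe shared 45 bases with a probe of Csta1. The array annotation assigned the Stfa1 probe also to Cstdc5 and the Stfa2l1 probe also to Stfa2, and the other 3 to 1 RefSeq transcript each. Signals of close copies may thus be mixed, most of all for Stfa1, Stfa2l1 and Cstdc5.

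Over all genes the arrays were close to each other, with Pearson correlations of 0.994 between the miR-223 KO arrays, 0.990 between the wild-type arrays and 0.985 to 0.991 between genotypes. These run across the 16775 genes that 1 genotype or both showed well above background on each of its arrays, and such genes are no independent replicates. All 9 member genes were among them. Of all probes, 62.1% and 63.0% were well above background on the KO arrays, against 63.5% and 57.6% on the wild-type arrays, and 0 were saturated. Levels below are log2 intensities relative to the 75th percentile of the array, and a level is compared between arrays for 1 probe and not between probes.

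All 5 stefin A members were lower on both miR-223 KO arrays than on either wild-type array. Stfa1, a stefin of the cytosol, had levels of 5.25 and 5.74 on the KO arrays, against 6.45 and 7.13 on the wild-type arrays. Both KO values lay below both wild-type values, and the difference was -1.29 ± 0.30 (limma SE, n = 2 arrays per genotype), or 2.45-fold. Wild-type array 2 gave the highest value and KO array 1 the lowest.

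The same order of arrays was seen for the other 4. Stfa2 stood at 3.35 and 3.99 on the KO arrays, against 4.43 and 5.61 on the wild-type arrays, a difference of -1.35 ± 0.47 or 2.55-fold. The 2 wild-type arrays of Stfa2 were 1.17 apart, close to the difference between genotypes, and the groups did not overlap. Stfa3 stood at 2.58 and 3.12 on the KO arrays, against 3.70 and 4.92 on the wild-type arrays. Its difference of -1.46 ± 0.46, or 2.76-fold, was the most negative among the stefin A members, and its wild-type arrays were also the farthest apart, by 1.22. Cstdc5, whose product is a predicted cystatin, had 6.02 and 6.33 on the KO arrays, against 7.04 and 7.66 on the wild-type arrays, a difference of -1.18 ± 0.26 or 2.26-fold. Stfa2l1, the copy whose probe the annotation shares with Stfa2, had 4.31 and 4.82 on the KO arrays, against 5.15 and 6.17 on the wild-type arrays. Its difference of -1.10 ± 0.40, or 2.14-fold, was the least negative of the 5, with a gap of 0.33 between the higher KO array and the lower wild-type array.

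**Figure D1:**
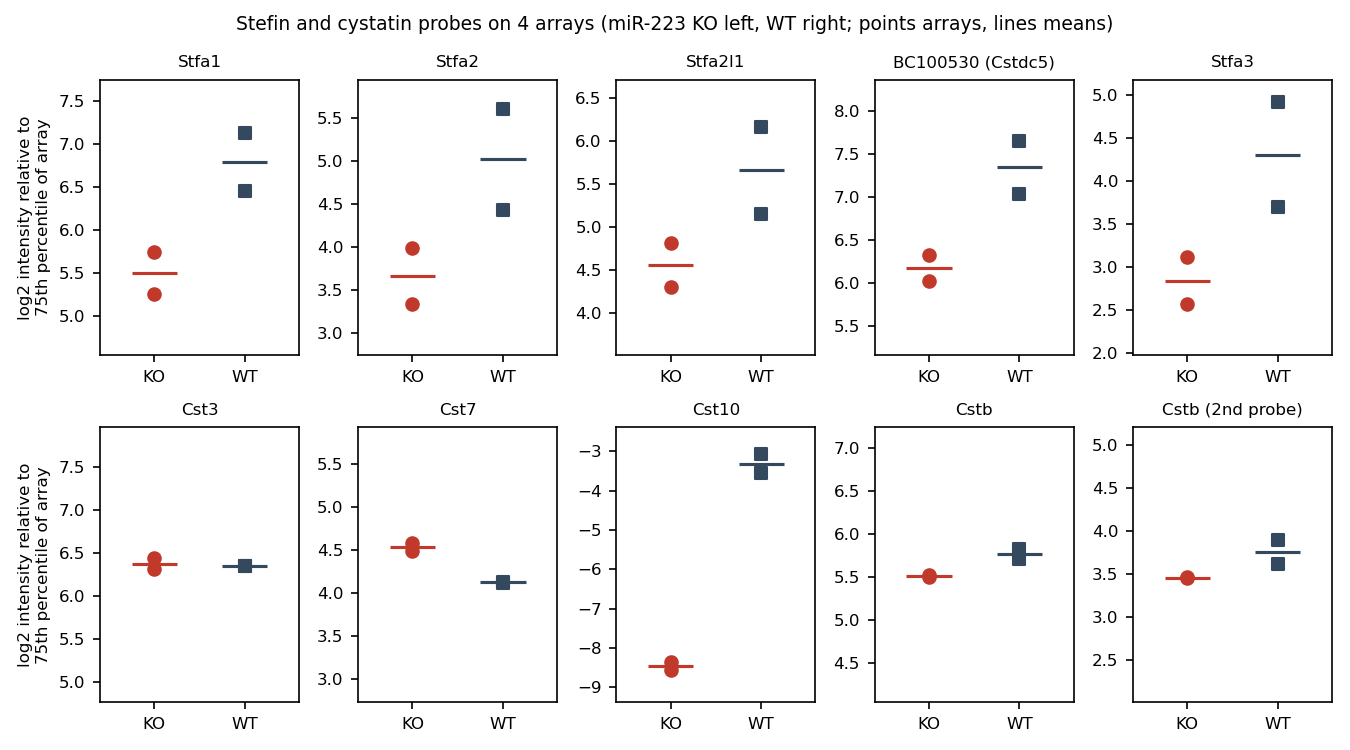
Levels of the 10 member probes, as log2 intensity relative to the 75th percentile of each array, with miR-223 KO arrays as circles on the left, wild-type arrays as squares on the right and means as lines. Every panel spans the same range except that of Cst10, which is wider. The 5 stefin A probes of the upper row lie lower on the KO arrays, with the wild-type arrays spread apart, whereas Cst3 overlaps and Cst7 lies higher on the KO arrays.

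Of the 9 member genes, 7 were lower and 2 higher in miR-223 KO cells, and 7 had both KO arrays below both wild-type arrays, an order found for 20.1% of the 16775 genes. Cst7 had both KO arrays above both wild-type arrays, as 28% of genes did. The 5 stefin A genes and Cst10, 6 members in all, were at least 2-fold lower, against 2.19% of genes, and all 6 were without overlap too, against 1.93%. Cst10 passed the filter on dim probes only through its wild-type arrays, where it was higher. With normexp background correction 5 of the 9 members were at least 2-fold lower. The median difference was -1.18 over the members and -1.29 over the 5 stefin A genes, against 0.03 over all genes. These counts describe the list, which was drawn from the same values. By limma at an adjusted p of 0.05, 0 of all genes (0%) were called higher or lower, while 1346 (8.02%) were higher and 925 (5.51%) lower in KO at an unadjusted p under 0.05.

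How far the stefin A genes differed rested in part on wild-type array 2. Without it, all 5 were still lower in KO cells, with a median of -0.86 and a range of -0.95 to -0.59, and 0 of the 5 reached 2-fold. Without wild-type array 1 the median was -1.63 and all 5 reached 2-fold. With only the 3 probes assigned to 1 transcript each (Stfa2, Stfa3 and Cstdc5), the median was -1.35. Of these, the Cstdc5 and Stfa3 probes share 45 and 22 bases with probes of Csta1 and Cstdc4, so copies may still be mixed.

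The cluster holds further stefin A genes that were not on the list. From RefSeq, 11 such genes over 335 kb of chromosome 16 were taken by symbol. Of these, 9 were on the array and 8 were measured, the 5 members and Csta1, Csta2 and Cstdc4. Gm7260, a protein-coding gene that RefSeq also places in this span, was not among the 11 and not on the array. All 8 had both KO arrays below both wild-type arrays, against 20.1% of all genes, and 7 were at least 2-fold lower, against 2.19%. The differences ran from -1.46 to -0.79 with a median of -1.19. The 5 members among the 8 were chosen from this contrast, so these counts in part restate that choice. Without wild-type array 2, all 8 were still lower and 0 reached 2-fold. The 3 genes outside the list have probes that share bases with those of members, so their values are not independent of them.

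Cstdc4, a predicted cystatin, had levels of 4.92 and 5.29 on the miR-223 KO arrays, against 6.04 and 6.55 on the wild-type arrays. The KO values were both below, at a difference of -1.19 ± 0.24 that did not pass over all genes (limma adjusted p = 0.256). Csta2, which the array names 2010005H15Rik, had 3.30 and 3.81 on the KO arrays, against 4.03 and 4.65 on the wild-type arrays (-0.79 ± 0.29, limma adjusted p = 0.370). It too showed no overlap, with the smallest difference of the cluster, -0.48 without wild-type array 2. The brighter probe of Csta1 had 6.63 and 6.88 on the KO arrays, against 7.60 and 8.30 on the wild-type arrays (-1.20 ± 0.28, limma adjusted p = 0.267). This is the probe that shares 45 of its 60 bases with that of Cstdc5, and the annotation assigns it to 2 transcripts. The other Csta1 probe, assigned to 1 transcript, was not well above background on any of the 4 arrays, so that signal from Csta1 and from its copies cannot be told apart on the brighter probe. Cstdc3 was likewise not well above background on any array.

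A pair of probes with no gene symbol also fell in the cluster by position and by sequence. The one named ENSMUST00000077110, at chr16:36136075-36137745 of mm9, shared 26 bases with the Stfa2l1 probe. Its levels were 2.94 and 3.61 on the KO arrays, against 3.99 and 4.87 on the wild-type arrays, a difference of -1.16 ± 0.39. The one named NAP065340-1, at chr16:36359638-36386616, shared 24 bases with the Cstdc4 probe and had -1.35 and -0.37 on the KO arrays, against -0.08 and 0.74 on the wild-type arrays (-1.19 ± 0.45). Both placed the KO arrays below the wild-type arrays, and both were singled out after their values were seen.

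**Figure D2:**
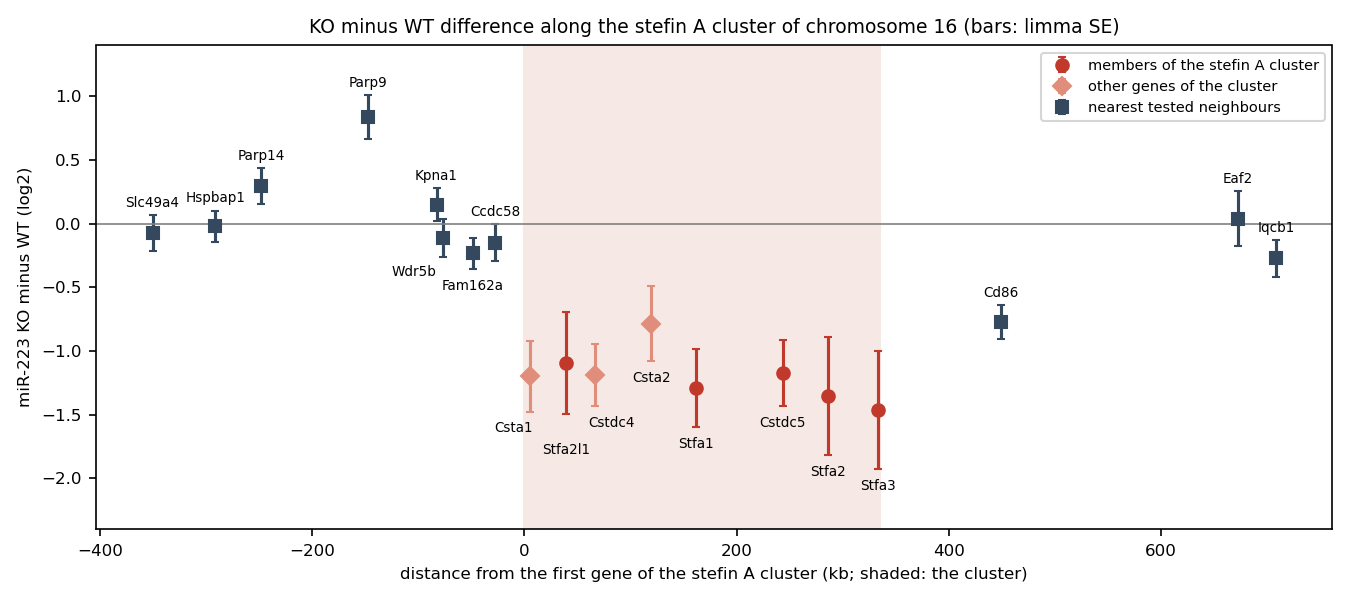
Difference of miR-223 KO minus wild type on the log2 scale, with limma SE as bars, against the distance in kb from the first gene of the stefin A cluster, which is shaded. Circles are member genes, diamonds other genes of the cluster and squares the nearest measured neighbours; Slc15a2, with an SE of 2.07, is left off. The 8 cluster genes lie between -1.46 and -0.79, while the neighbours lie between -0.77 and 0.84.

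The genes on either side of the cluster are set beside it as a description, and the difference between them and the cluster was not tested. Among the nearest 12 measured neighbours, 7 were lower and 5 higher in miR-223 KO cells, with a median difference of -0.05, and 0 were at least 2-fold lower. Without overlap 3 were lower and 3 higher, against 20.1% lower and 28% higher of all genes. By limma 0 of the 15 measured within 500 kb passed, as 0 of all genes and 0 of the cluster genes did. At an unadjusted limma p under 0.05 Cd86 was lower and Parp9 higher, against 5.51% lower and 8.02% higher of all genes. Before the cluster, differences were -0.15 for Ccdc58, a mitochondrial protein gene, -0.23 for Fam162a, a hypoxia-responsive gene, -0.11 for Wdr5b, -0.02 for Hspbap1 and -0.07 for Slc49a4. On the same side, 0.15 was found for Kpna1, a nuclear import adaptor, 0.84 ± 0.17 for Parp9 (limma adjusted p = 0.256) and 0.30 for Parp14, the last 2 being interferon-induced genes of the PARP family. After the cluster, Cd86, a costimulatory ligand of antigen-presenting cells, had levels of -3.50 and -3.61 on the KO arrays, against -2.70 and -2.87 on the wild-type arrays (-0.77 ± 0.14, limma adjusted p = 0.243). Differences were 0.04 for Eaf2, an elongation factor cofactor, and -0.27 for Iqcb1, a cilium gene. The peptide transporter gene Slc15a2 had -2.82 and -2.72 on the KO arrays, against -8.59 and -2.45 on the wild-type arrays, so its difference of 2.75 ± 2.07 rests on 1 array.

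The windows before the start sites were read because the 5 stefin A genes differed in the same direction. RefSeq promoter windows of GRCm38.p6 matched 11 of 12 cystatin genes looked up, with none for Cstb. All 5 stefin A members held 1 run of 12 bases, in capitals below, which was found by looking at these sequences and is shown at the end of 60 bases on the gene's strand.
Stfa1, chr16:36277067-36277126, plus strand: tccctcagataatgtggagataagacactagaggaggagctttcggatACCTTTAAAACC
Stfa2, chr16:36408384-36408443, minus strand: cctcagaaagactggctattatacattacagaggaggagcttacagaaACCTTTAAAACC
Stfa2l1, chr16:36156727-36156786, plus strand: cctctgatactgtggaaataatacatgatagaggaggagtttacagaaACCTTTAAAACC
Cstdc5, chr16:36367571-36367630, minus strand: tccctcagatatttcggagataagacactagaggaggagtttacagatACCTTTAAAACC
Stfa3, chr16:36455415-36455474, minus strand: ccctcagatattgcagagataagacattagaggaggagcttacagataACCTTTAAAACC
The run began 32 to 36 bases before the annotated start in Stfa1, Stfa2, Stfa2l1 and Stfa3, and 12 bases before it in Cstdc5. It occurred in 10 of 32851 promoter windows (0.0304%), 9 of them on chromosome 16: Csta3, Cstdc3, Cstdc4, Cstdc5, Gm7260, Stfa1, Stfa2, Stfa2l1 and Stfa3. The other was that of Gm39539 on the X chromosome. Among the measured cluster genes outside the list, Cstdc4 held the run, at a KO minus wild-type difference of -1.19. The windows of Csta1 and Csta2 did not hold it, at differences of -1.20 and -0.79. Whether the run has a part in the differences was not tested. Over the 10 pairs of members, 36 to 54 of the 60 bases were identical, at the best match within a shift of 1 base either way.

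Other letters were searched on both strands of the 250 bases before each start. The core that PU.1 binds, GAGGAA, was in 5 of 5 stefin A members and in 23.3% of all promoter windows. The C/EBP pattern TTNNGNAA was in 4 of 5, against 36.8% of all windows, and the letters TATAAA were in 0 of 5, against 12.4%. Among the secreted cystatins, GAGGAA was in the windows of Cst3 and Cst10 and the C/EBP pattern in those of Cst7 and Cst10. These are matches of letters in sequences that are copies of each other, and they show no binding.

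The other 4 members lie on other chromosomes and differed among themselves in direction and size. Cstb, which encodes stefin B, an inhibitor of the cytosol and nucleus mutated in a human progressive epilepsy, had levels of 5.49 and 5.53 on the miR-223 KO arrays, against 5.71 and 5.83 on the wild-type arrays. The KO arrays were both lower, by a difference of -0.26 ± 0.12 or 1.20-fold. A second Cstb probe gave 3.45 and 3.47 on the KO arrays, against 3.62 and 3.89 on the wild-type arrays, and a difference of -0.30 ± 0.15. Both probes lie on chromosome 10 (chr10:77890058-77890117 and chr10:77889690-77889749 of mm9, plus strand) and gave the same order of genotypes.

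Cst3, which encodes cystatin C, the broadly secreted inhibitor of cathepsins, had 6.44 and 6.32 on the KO arrays, against 6.35 and 6.35 on the wild-type arrays. The wild-type values lay between the KO values, and the difference of 0.03 ± 0.13 turned to -0.08 with quantile normalization and -0.07 with spike-in scaling. Cst7, which encodes cystatin F, an inhibitor of blood cells that reaches lysosomes and acts on cathepsin C, had 4.57 and 4.49 on the KO arrays, against 4.11 and 4.13 on the wild-type arrays. It was the 1 member with both KO arrays above, at a difference of 0.41 ± 0.12 or 1.33-fold. The probes of Cst3, Cst7 and Cst10 lie on chromosome 2 of mm9 (chr2:148697681-148697740, minus strand, chr2:150404490-150404549 and chr2:149235773-149235832, plus strand).

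Cst10, known from cartilage, was the 1 member at background in a whole genotype. Its processed intensities were 1.57 and 1.30 on the miR-223 KO arrays, not well above background on either, against 69.8 and 41.5 on the wild-type arrays, well above background on both. On the log2 scale these were -8.35 and -8.56 on the KO arrays, against -3.07 and -3.55 on the wild-type arrays. Taking as the KO level the lowest signal that counted as well above background, Cst10 was 8.51-fold lower in KO cells. This is no strict minimum, since a brighter signal can also fail that mark, as Fetub did at -5.77 on KO array 1. The measured difference of -5.15 was -0.91 with normexp background correction, a method that lifts dim signals, and is no estimate of size.

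**Figure D3:**
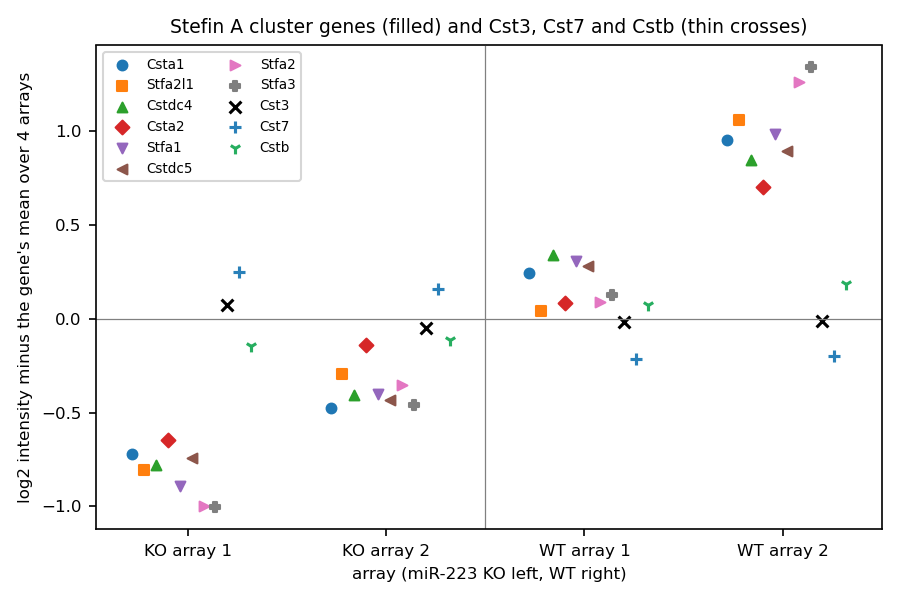
Level of each gene on each array minus its mean over the 4 arrays, on the log2 scale, with the miR-223 KO arrays left and the wild-type arrays right. The 8 stefin A cluster genes lie below 0 on both KO arrays and above 0 on both wild-type arrays, highest on wild-type array 2, whereas Cst3, Cst7 and Cstb stay within 0.25 of 0.

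The cluster genes also had the same order of arrays within each genotype, an order that other genes had too. For the 8 measured cluster genes, array 2 was above array 1 by 0.25 to 0.65 within miR-223 KO and by 0.51 to 1.22 within wild type. For Cst3 the same differences were -0.12 within KO and 0.01 within wild type, and for Cst7 they were -0.09 within KO and 0.02 within wild type. Cstb had the order of the cluster genes, at 0.03 within KO and 0.11 within wild type. So had the granulocyte marker Camp, at 0.26 within KO and 0.35 within wild type, whereas Ngp had 0.17 and -0.31. Of the other granulocyte markers, Ltf, Lcn2, S100a8, S100a9, Cd177 and Mmp8 had the order of the cluster genes. Mmp8 had levels of 3.49 and 4.22 on the KO arrays, against 2.46 and 3.71 on the wild-type arrays. Mpo, Elane and Prtn3 had the reverse order within both genotypes, and Ctsg and Fcnb differed between genotypes. The share of all genes with the order of the cluster genes was not computed. Values were centred over the 4 arrays, and the median stefin A profile was made from the 5 members themselves. The Euclidean distance from this profile was 0.16 to 0.31 for those 5, so their small distances were built in. It was 0.25 for Csta1, 0.32 for Cstdc4 and 0.51 for Csta2, whose probes share bases with those of members. It was 1.18 for Cstb, 1.49 for Cst3 and 1.82 for Cst7.

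The 5 genes with the nearest profiles were named by the same distance over 4 arrays. Members, cathepsins, legumain and the other listed cystatins were left out of this search. Klf4, a zinc-finger transcription factor of monocyte differentiation, was nearest at 0.10, with levels of 2.50 and 2.88 on the KO arrays, against 3.48 and 4.44 on the wild-type arrays. Mmp13, a collagenase gene, followed at 0.11, with -6.63 and -6.14 on the KO arrays, against -5.51 and -4.71 on the wild-type arrays, well above background on 3 of 4. The others were the unnamed probe NAP052471-1 at 0.16, Gtsf1, a germline small-RNA pathway gene, at 0.16, and the ENSMUST00000077110 probe at 0.16, the one that shares bases with Stfa2l1. Their KO minus wild-type differences ran from -1.38 (Gtsf1) to -1.16 (ENSMUST00000077110).

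The proteases that stefins and cystatins hold in check were read as a list of 21 genes of cysteine cathepsins, legumain and relatives. Of these, 12 were measured, 8 lower and 4 higher in miR-223 KO cells with a median difference of -0.41, and 0 passed over all genes by limma. At an unadjusted p under 0.05 there were 4 lower and 1 higher of the 12, against 5.51% lower and 8.02% higher of all genes. Without overlap 6 were lower and 2 higher, against 20.1% lower and 28% higher of all genes, and nothing particular to the list was tested.

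Ctsk, a strong collagenase known from osteoclasts, had levels of -3.70 and -3.60 on the KO arrays, against -2.35 and -1.95 on the wild-type arrays. The groups did not overlap, at -1.50 ± 0.18 (2.83-fold, limma adjusted p = 0.239). The difference was -1.70 without wild-type array 1 and -1.30 without wild-type array 2. With normexp background correction the Ctsk difference was -0.83 (limma adjusted p = 0.181). Lgmn, which encodes legumain, an asparagine-specific protease that processes cathepsins, had 0.45 and 0.06 on the KO arrays, against 1.49 and 1.25 on the wild-type arrays (-1.11 ± 0.20, limma adjusted p = 0.243). Ctss, an invariant chain protease of antigen-presenting cells, had 6.07 and 6.15 on the KO arrays, against 6.52 and 7.01 on the wild-type arrays (-0.65 ± 0.20, limma adjusted p = 0.328). Its gap between genotypes, 0.36, was smaller than the 0.49 between its wild-type arrays, and its difference was -0.40 without wild-type array 2.

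In the other direction, Ctsl, a broadly active lysosomal protease, had 4.63 and 4.72 on the KO arrays, against 3.48 and 4.15 on the wild-type arrays. It lay higher on both KO arrays, at 0.86 ± 0.26 (1.81-fold, limma adjusted p = 0.319), and at 0.52 without wild-type array 1. Ctsz, an exopeptidase, had a difference of 0.26 ± 0.18, which was 0.06 without wild-type array 1, and its second probe 0.32. Ctsc, which activates granule serine proteases and is a target of cystatin F, had 3.68 and 3.47 on the KO arrays, against 3.79 and 4.09 on the wild-type arrays (-0.36 ± 0.17, limma adjusted p = 0.441), and its difference was -0.21 without wild-type array 2. The lysosomal proteases Ctsb and Ctsh overlapped between genotypes, with differences of 0.12 and -0.20 whose signs turned when 1 wild-type array was left out. The remaining 4 had differences of -0.52 (Ctsf), -0.48 (Ctso), -0.46 (Tinagl1, a relative without protease activity) and 0.84 (Ctsm, known from placenta and well above background on 3 of 4 arrays), with limma adjusted p from 0.302 to 0.578. Of these, Tinagl1 came to -0.018 and Ctsm to 0.094 without wild-type array 2, and Ctsf to -0.22 without KO array 1. With normexp, Ctsf was at -0.13, Ctsm at 0.015, Tinagl1 at -0.30 and Ctso at -0.32. Among the 21, 8 stayed at background on all 4 arrays, mostly the placental cathepsins of chromosome 13.

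**Figure D4:**
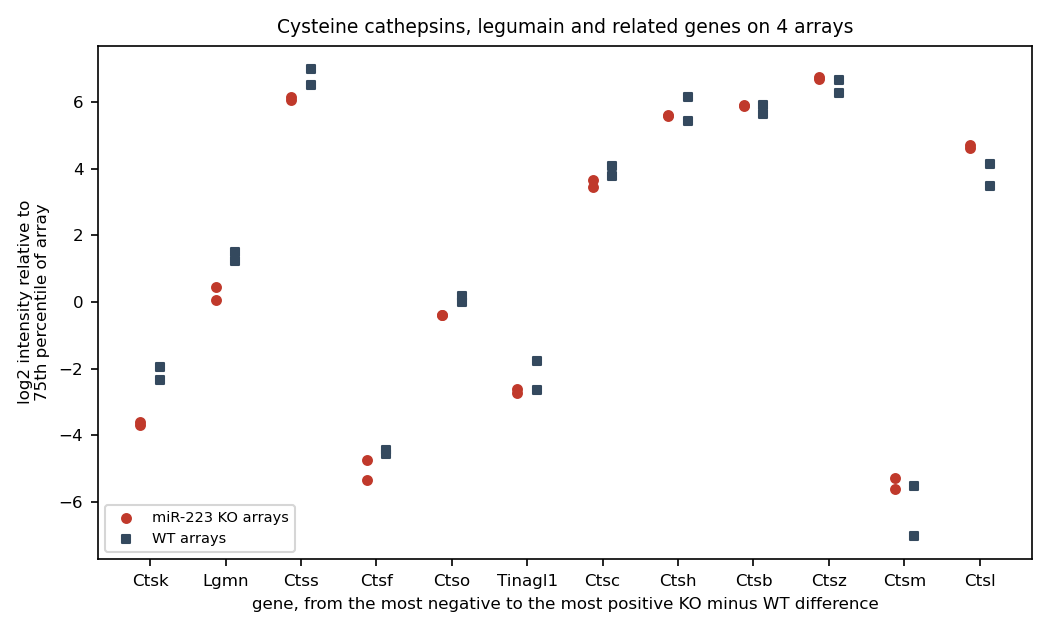
Levels of the 12 measured cathepsins, legumain and relatives on each array, as log2 intensity relative to the 75th percentile of the array, with miR-223 KO arrays as circles on the left of each pair and wild-type arrays as squares on the right. Genes run from the most negative difference, Ctsk at -1.50, to the most positive, Ctsl at 0.86; heights are comparable within a gene and not between genes.

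The rest of the cystatin superfamily was mostly at background. Of 25 listed genes, 21 were on the array, and 14 of these stayed at background on all 4 arrays, among them the testis and epididymis cystatins of chromosome 2, the kininogens and the fetuins. The 7 measured were 5 lower and 2 higher, 0 passed over all genes by limma, and 2 were lower and 2 higher at an unadjusted p under 0.05, against 5.51% lower and 8.02% higher of all genes. Of the 2 higher, Hrg passed the filter on dim probes only through its KO arrays. Beside the 3 cluster genes above, Cst6, a secreted cystatin of skin, had a difference of -0.55 ± 0.28, which was -0.27 without wild-type array 2 and -0.20 with normexp. Ngp, a cystatin-like protein of neutrophil granules, had 8.86 and 9.02 on the KO arrays, against 8.60 and 8.29 on the wild-type arrays (0.50 ± 0.17, limma adjusted p = 0.343). Camp, the cathelicidin precursor with a cystatin-like propeptide, overlapped between genotypes at -0.18 ± 0.19. Hrg, a liver plasma protein with cystatin domains, had -5.17 and -5.28 on the KO arrays, against -7.07 and -5.91 on the wild-type arrays, where it was not well above background on either. With the wild-type level taken as for Cst10, Hrg was 1.70-fold higher in KO cells, which is likewise no strict minimum. Its limma adjusted p was 0.332, and its difference was 0.11 under normexp.

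Markers of the cell types the sort could hold were read beside the stefin and cystatin values. Of 15 granulocyte markers, 13 were on the array and all 13 were well above background on every array, 10 higher and 3 lower in miR-223 KO cells with a median difference of 0.15 and 0 passing by limma (3 higher and 0 lower at an unadjusted p under 0.05). Of 15 macrophage and monocyte markers all were measured, 13 lower and 2 higher with a median of -1.11. By limma 0 passed (7 lower and 2 higher at an unadjusted p under 0.05). For this list and the granulocyte list, the shares of all genes at that unadjusted p were 5.51% lower and 8.02% higher. The summed level of the macrophage and monocyte markers was 9.14 and 9.20 on the KO arrays, against 8.76 and 8.87 on the wild-type arrays. Brighter probes weigh more in this sum, and most of it was Ly6c2. That marker alone had 9.05 and 9.11 on the KO arrays, against 8.63 and 8.72 on the wild-type arrays. The 2 higher markers were Adgre1 (0.75) and Ly6c2 (0.40), and the most negative differences were those of Mertk (-2.04), Fn1 (-1.91) and Cd163 (-1.64). None of the 15 was at background on all arrays.

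Mast cell and basophil markers were 8 lower and 1 higher of 9 measured, with a median of -1.35. Their summed level was 5.53 and 4.61 on the KO arrays, against 6.01 and 6.17 on the wild-type arrays, and the mast cell protease genes Tpsb2 and Cma1 were not well above background on any array. Dendritic cell markers were 8 lower and 3 higher of 11, with a median of -0.34 and summed levels of 7.53 and 6.95 on the KO arrays, against 7.45 and 7.56 on the wild-type arrays. For both lists 0 passed by limma, with 2 and 3 lower and 0 higher at an unadjusted p under 0.05. Of all genes, 5.51% were lower and 8.02% higher at that p. Eosinophil markers, 6 of them measured with a median of -0.15, had summed levels of 4.34 and 4.73 on the KO arrays, against 3.57 and 5.93 on the wild-type arrays. Megakaryocyte markers, 3 lower and 1 higher of 4 with a median of -0.81, had summed levels of 1.22 and 1.61 on the KO arrays, against 1.95 and 3.35 on the wild-type arrays, the same order of arrays as the stefin A genes. Wild-type array 2 also had the highest sum of the mast cell, dendritic cell, eosinophil, and T and NK cell lists. Erythroid, B cell, and T and NK cell markers had 2, 4 and 3 measured genes, with medians of 0.09, 0.12 and 0.03. The part of these markers in the stefin and cystatin values was not tested.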

How the data were processed

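Cy3-labelled RNA of each sample was put on its own Agilent mouse array (design 014868), and the 4 arrays lay on 1 slide. The deposited intensity values were made with Agilent Feature Extraction 10.5.1.1 per the file headers, which correct background and give dim spots surrogate values. The authors' deposited log2 values, used as an alternative, carry no account of their scaling: how they were made is not given in the sources used here.

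Processed intensities were turned to log2, spots of a probe averaged and each array's 75th percentile subtracted (intensity 514 and 493 on miR-223 KO arrays, 586 and 486 on wild-type arrays). Control and outlier spots were left out. Probes were named through RefSeq accessions (GRCm38.p6): 26873 by systematic name, 95 by another accession, and 14182 kept the array's name. The brightest probe stood for a gene, and 16775 genes that either genotype showed well above background on each of its arrays were fitted with limma (lmFit, eBayes, two-sided, Benjamini-Hochberg at 0.05), after a test on simulated data. Named genes were every member and probe, every measured cathepsin, legumain relative and other cystatin, the nearest 12 measured neighbours, the 5 nearest profiles, and markers by list with their defining members. The members and lists were chosen with earlier results of these data known. Replicate numbers were not shown to pair samples: with 2 pairs, same-number deviations correlated at 0.17. Software was R 4.3.3, limma 3.58.1, the data.table package (1.17.8), Python 3.11.15 and matplotlib 3.10.9. Alternatives were normexp (offset 50), quantile and spike-in scaling, the deposited log2 values, no filter on dim probes, the mean of all probes, a replicate block, each array left out, and, chosen after seeing the data, stefin probes of 1 transcript only.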

Additional observations from a re-analysis of the deposited data

How the results depend on the processing

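With 2 arrays per genotype, the number of arrays and the copies that share probe bases limit what can be resolved. Of all genes, 0 passed limma, against 5 with normexp (2 higher, 3 lower in miR-223 KO), 4 with spike-in scaling (0 higher, 4 lower), and 0 to 339 when each array was left out in turn. The 339 came without wild-type replicate 1 (38 higher, 301 lower), where the lone wild-type array is assumed to vary like the KO arrays. Among cathepsins, legumain and other cystatins, 0 to 1 passed when each array was left out, the 1 being Ctsk at -1.70. The members' median of -1.18 became -1.61 when wild-type replicate 1 was left out and -0.77 when wild-type replicate 2 was left out. With each array left out, Ctsb ran from -0.017 to 0.26 and turned below 0 for wild-type replicate 1, and Ctsh ran from -0.55 to 0.15 and turned above 0 for wild-type replicate 2; the cause was not tested. With the replicate number as a block, 0 genes passed, as without it. Every replicate number has an array of each genotype, so a block cannot change the differences or the members' median of -1.18. Over all settings Stfa1, Stfa2, Stfa2l1, Stfa3, Cstdc5, Cstb and Cst10 were below 0 and Cst7 above 0, and Cst3 ran from -0.08 to 0.09. These settings are not independent checks. The stefin A median minus the all-gene median was -1.32 in the main values, the deposited log2 values and spike-in scaling alike.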
